A study of Mus musculus with 6 samples.

Results

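The 10 genes described here encode sensors of foreign or misplaced nucleic acids, together with the adaptor and the editing enzyme that act beside them: Ddx58, Ifih1, Dhx58, Mavs, Tlr3, Tlr7, Tlr9, Eif2ak2, Zbp1 and Adar. They were taken by symbol, and all 10 were found among the 24732 gene symbols of the expression table. Gene expression had been measured by RNA-seq in cultured mouse female germline stem cells (FGSCs) of strain C57BL/6 at more than 20 passages, in 3 samples of a control group and 3 of a group in which CTCF, the zinc finger protein that bounds chromatin loops, was knocked down (shCTCF). All cells had been grown on mitotically inactivated STO fibroblast feeders. The knockdown used 1 short hairpin RNA delivered by lentivirus, followed by selection with puromycin, and what the control cells received is not given in the sources used here. Infection and selection therefore cannot be told apart from the loss of CTCF in this comparison. Nothing in the labels says that the replicates came from separate cultures, so the p-values measure the spread between these samples.

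Cells recognise nucleic acids by their place and their form. In the cytosol, the RIG-I-like helicases RIG-I (Ddx58) and MDA5 (Ifih1) bind double-stranded RNA, LGP2 (Dhx58) modulates both, and the adaptor MAVS on mitochondria passes the signal to kinases that activate interferon regulatory factors. In endosomes, Toll-like receptors bind double-stranded RNA (Tlr3), single-stranded RNA (Tlr7) or unmethylated CpG DNA (Tlr9). PKR (Eif2ak2) halts translation when it binds double-stranded RNA, ZBP1 binds left-handed Z-form nucleic acids and can start necroptosis, and ADAR1 (Adar) converts adenosine to inosine in double-stranded RNA. Several of these genes are themselves known to be induced by interferons.

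Sequences around the transcription start are shown because many interferon-induced genes carry an interferon-stimulated response element (ISRE) there. Windows of 300 bases, from 250 before to 50 after the annotated start (RefSeq, GRCm38.p6), were at hand for 7 of the 10 genes, and not for Dhx58, Tlr7 and Zbp1. The motif was taken as 2 copies of GAAA with any 2 bases between them, searched on both strands, and was found in the windows of 3 genes, Ddx58, Ifih1 and Eif2ak2, each time just after the start. The match is in capitals with up to 10 bases on either side, written 5′ to 3′ on the strand of the gene:
Ddx58: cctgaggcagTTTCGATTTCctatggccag
Ifih1: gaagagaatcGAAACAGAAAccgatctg
Eif2ak2: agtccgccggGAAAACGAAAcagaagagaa

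By exact match to the mm9 genome, the build of the deposited files, the Ddx58 stretch lay on the minus strand at chr4:40186837-40186866, the Ifih1 stretch on the minus strand at chr2:62484263-62484290, and the Eif2ak2 stretch on the minus strand at chr17:79281875-79281904. The capitals lay at bases 3 to 12 (Ddx58), 33 to 42 (Ifih1) and 19 to 28 (Eif2ak2) counted from the start as base 1, within the transcribed part. In Ddx58 the letters were on the opposite strand. Of all 32851 windows in the table, 1131 (3.44%) held this motif. A second interferon element, the gamma-activated site (TTC and GAA with any 3 bases between them), was matched in Eif2ak2 and in 1 of the 3 start windows of Adar, against 2726 windows (8.3%) in all. The core of the CTCF motif (CCA, AG and GGC in this order with any 2 bases between each, on either strand) was in none of the windows of the 7 genes, against 797 windows (2.43%) in all. These are matches of letters and not measured binding.

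The knockdown was visible in the libraries. Ctcf had 58.2, 56.1 and 53.5 FPKM (fragments scaled to transcript length and to sequencing depth) in control replicates 1 to 3 and 0.74, 0.55 and 0.629 FPKM in the shCTCF samples, and fell by 5.12 on the log2(FPKM + 1) scale (SE 0.09, n = 3 per group, adjusted p = 1.1e-08, limma). The count table held 0 counts of Ctcf in every sample, so this check rests on FPKM. Total counts per sample were between 1686052 and 7044272, and the smallest library was control replicate 2. Change was widespread: 7281 of the 9976 symbols with a mean of at least 1 FPKM (73%) passed an adjusted p of 0.05, 28.8% of all tested being higher and 44.2% lower, so that passing the threshold does not by itself set a gene apart. The median change over all tested symbols was -0.17 on the log2 scale. Of the defining markers of the labelled cell type, Dppa3 and Gfra1 were at 0 FPKM in all 6 samples and Ddx4, Pou5f1 and Dazl were at 0 in all controls, whereas Kit, which mast cells also express, stood at 575 ± 35.8 (SD, n = 3) FPKM in controls and 787 ± 14.4 FPKM in shCTCF samples and made up most of the summed level of the 10 markers of this type (561 to 632 and 798 to 826 FPKM, with 3 of 10 above a mean of 1 FPKM in each group). Other markers of the labelled type were present: Etv5 stood at 17.3 ± 0.569 FPKM in controls and 14.2 ± 0.194 FPKM in shCTCF samples. Zbtb16 was at 1.56 ± 0.422 and 0.288 ± 0.00602 FPKM, and Prdm1 at 0.0751 ± 0.0123 and 0.788 ± 0.0444 FPKM. All 6 common leukocyte markers were above a mean of 1 FPKM in both groups (Ptprc at 104 ± 17.5 and 115 ± 6.83 FPKM, sums of 683 to 699 and 912 to 946 FPKM), as were 10 of 16 mast cell markers in controls and 11 in shCTCF samples, and the cells are therefore named here only by their label.

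Most of the sensors were more abundant in shCTCF samples. On FPKM, 8 of the 10 genes passed the filter of a mean of 1 FPKM, 7 of them rose and 1, Mavs, did not pass the test, against 28.8% of all tested symbols that rose. Ifih1, Dhx58, Tlr7 and Zbp1 reached the filter only through the shCTCF group, so this count is a description of the 8 genes and not of all members. Without regard to the filter, the 3 shCTCF values lay above the 3 control values in 8 of the 10 genes. The share of all symbols without the filter was not computed. Among the 8 tested genes this held for 7, where 30.8% of all tested symbols did so. Of these 7, 4 are the genes that reached the filter only through the shCTCF group. Of the 8 tested genes, 6 rose by at least 1 on the log2 scale, where 11.3% of all tested symbols did, and 4 of these 6 are the genes that reached the filter only through the shCTCF group. The summed FPKM of the 10 genes was between 35.3 and 37.5 in controls and between 161 and 173 in shCTCF samples. In bulk RNA, fewer cells of a type and less RNA per cell cannot be told apart.

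**Figure D1:**
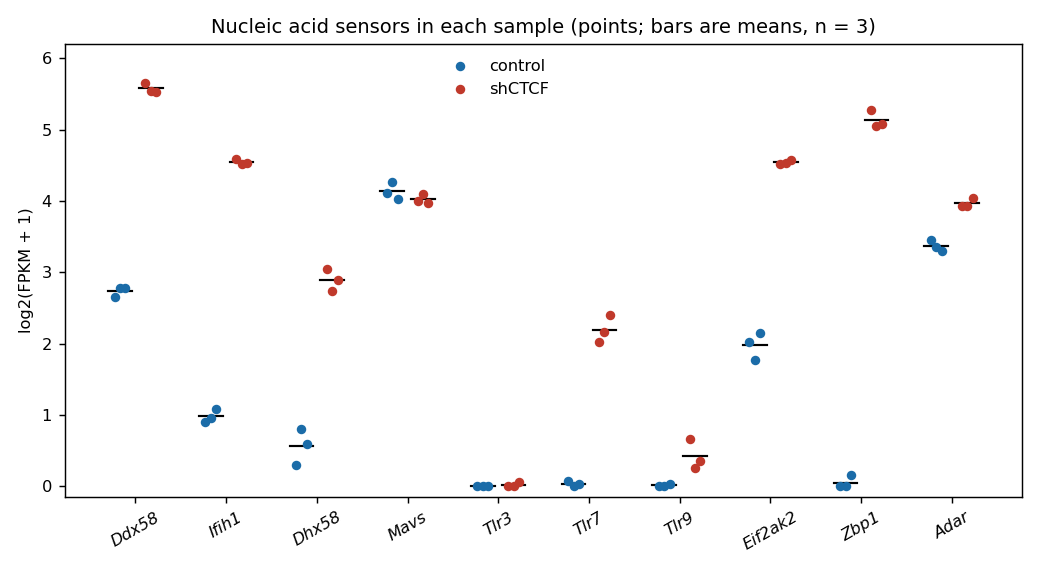
Expression of the 10 sensor genes in every sample, as log2(FPKM + 1); points are samples (3 control in blue, 3 shCTCF in red) and black bars are group means. The groups are apart in 8 genes, overlap in Mavs, and stay at or near 0 in Tlr3.

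Among the cytosolic RNA helicases, all 3 genes rose. Ddx58, which encodes RIG-I, the sensor of RNA with a 5′ triphosphate, had 5.30, 5.85 and 5.87 FPKM in control replicates 1 to 3 and 49.6, 45.7 and 45.3 FPKM in shCTCF replicates 1 to 3. The lowest shCTCF sample was thus far above the highest control, and the ratio of the means was 8.26 (log2 change 2.84, SE 0.08, adjusted p = 9.1e-08, limma). Ddx58 has 1 RefSeq transcript (NM_172689, 18 exons, chr4:40150810-40186858, minus strand, mm9) that shares no exon base with another, so its counts were not affected by overlap. Control replicates 1 to 3 had 321, 90 and 377 counts, shCTCF replicates 1 to 3 had 2681, 2228 and 2826, and the change in counts was 3.22 on the log2 scale (SE 0.09, adjusted p = 3.3e-11, edgeR).

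Ifih1, the gene of MDA5 (chr2:62433850-62484312, minus strand), which senses long double-stranded RNA, was at 0.859, 0.941 and 1.12 FPKM in controls and at 23.0, 21.8 and 22.0 FPKM in shCTCF samples. Its ratio of means was 22.9 (log2 change 3.56, SE 0.09, adjusted p = 7.3e-08, limma), the highest among the genes for which a ratio can be given. The control values were close to the filter, and the shCTCF values were within 1.2 FPKM of each other. In counts the gene had 2, 2 and 0 in controls against 9, 11 and 20 in shCTCF samples, few because its 2 transcripts share nearly all exon bases (97.3% of the longer one) and fragments over shared bases were not counted. It did not pass the filter on counts; without that filter its change was 3.08 (adjusted p = 8.0e-05, edgeR).

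Dhx58, the gene of LGP2 (chr11:100556198-100565585, minus strand), which lacks the signalling domains of the other 2 helicases, had 0.231, 0.749 and 0.504 FPKM in controls and 7.25, 5.68 and 6.38 FPKM in shCTCF samples. The controls differed among themselves by more than 3-fold at this low level, and the groups were far apart all the same. Its log2 change was 2.32 (SE 0.16, adjusted p = 6.9e-06, limma), with a ratio of means of 13.01. Its counts were 14, 7 and 20 in controls and 206, 148 and 214 in shCTCF samples, a log2 change of 3.70 (SE 0.22, adjusted p = 1.9e-08, edgeR). The smaller value on FPKM comes from the added 1 FPKM, which understates changes of low genes.

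Mavs, the adaptor that receives the signal of RIG-I and MDA5 (chr2:131059799-131073760, plus strand), did not pass the test. It had 16.3, 18.3 and 15.3 FPKM in controls and 15.04, 16.1 and 14.6 FPKM in shCTCF samples, and the groups overlapped. The log2 change was -0.12 (SE 0.09, adjusted p = 0.263, limma), with a 95% interval from -0.32 to 0.09, and its sign turned to 0.06 (adjusted p = 0.599) when samples were scaled to the same median. Mavs had few counts, 20, 6 and 16 in controls and 7, 12 and 9 in shCTCF samples, since its 4 transcripts share most of their exons. Their log2 change was -0.66 (SE 0.38, adjusted p = 0.143, edgeR).

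The endosomal receptors were low throughout. Tlr3, the receptor of double-stranded RNA (chr8:46481019-46495973, minus strand), was listed at 0 FPKM in 5 samples and at 0.042 FPKM in shCTCF replicate 3, and had 0 counts in all 6. A count of 0 allows up to 3 counts per library, but its 3 transcripts share 98.1% or more of their exon bases, so the counts could hardly have shown it. Tlr3 was not tested.

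Tlr7, the receptor of single-stranded RNA (chrX:163742858-163768503, minus strand), was at 0.049, 0 and 0.023 FPKM in controls and at 3.05, 3.49 and 4.28 FPKM in shCTCF samples. All shCTCF samples were above 3 FPKM and no control reached 0.1. Its log2(FPKM + 1) change was 2.16 (SE 0.14, adjusted p = 5.3e-06, limma), and no ratio is given against a group with a sample at 0. The size of this change depends on the added constant: it was 4.91 with 0.1 FPKM and 7.06 with 0.01 FPKM in place of 1. The count table held 0 counts of Tlr7 in all samples, so this rise has no second measurement: its 5 transcripts share 99.1% or more of their exon bases.

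Tlr9, the receptor of CpG DNA (chr9:106124929-106129207, plus strand), was listed at 0, 0 and 0.025 FPKM in controls and at 0.582, 0.191 and 0.282 FPKM in shCTCF samples. Every shCTCF sample was above every control, but all 6 values were below 1 FPKM and the gene was not tested. With 1 transcript free of overlap, its counts were 0, 0 and 1 in controls and 24, 7 and 12 in shCTCF samples. Given the library sizes, 43 counts against 1 correspond to a ratio of 41.0, with an exact 95% interval from 6.97 to 1656 that covers counting error only. Without filters the log2 change was 0.41 on FPKM (adjusted p = 0.0142, limma) and 4.93 on counts (adjusted p = 1.8e-07, edgeR).

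Eif2ak2 encodes PKR, a kinase that phosphorylates the translation factor eIF2 alpha (chr17:79251890-79281912, minus strand). It was at 3.05, 2.42 and 3.43 FPKM in controls and at 21.9, 22.1 and 22.8 FPKM in shCTCF samples, a ratio of means of 7.50 (log2 change 2.56, SE 0.11, adjusted p = 6.9e-07, limma). The shCTCF samples differed by less than 1 FPKM, and the groups were wide apart. The counts of its single transcript were 164, 37 and 198 in controls and 1044, 955 and 1255 in shCTCF samples, with a log2 change of 2.97 (SE 0.10, adjusted p = 1.8e-10, edgeR).

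Zbp1 (chr2:173032114-173044423, minus strand) went from almost nothing to 1 of the most abundant of the 10 genes. In controls it was listed at 0, 0 and 0.111 FPKM, and in shCTCF samples at 37.9, 32.1 and 32.8 FPKM. Its log2(FPKM + 1) change of 5.08 (SE 0.11, adjusted p = 2.4e-08, limma) was the largest of the 10 genes and lay above the 99th percentile of all tested symbols, which was 3.49. Zbp1 reached the filter only through the shCTCF group, so this rank is no more than a description. The fitted size depends on the added constant and reached 10.54 with 0.01 FPKM in place of 1. No control had a single count, whereas the shCTCF samples had 185, 160 and 193. Set against a floor of 3 counts per library, this was at least 38.2-fold higher in CPM, the counts scaled to library sizes after TMM normalisation. The fitted change in counts, 10.46 (SE 0.45, adjusted p = 1.3e-08, edgeR), depends on the prior count and is no bound.

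Adar (chr3:89518944-89557377, plus strand) rose by the least. It had 9.99, 9.27 and 8.85 FPKM in controls and 14.3, 14.3 and 15.4 FPKM in shCTCF samples, without overlap, and a ratio of means of 1.56 (log2 change 0.59, SE 0.08, adjusted p = 3.2e-04, limma). When only its transcript with the highest mean was used, the change was 0.34 and did not pass (adjusted p = 0.425). The change of the sum was smaller than that of the other 6 genes that rose and below the 95th percentile of all tested symbols, which was 1.74. Adar had at most 2 counts in any sample, because its 4 transcripts overlap each other and, at the end of the gene, Chrnb2 on the other strand. Strand was not used in counting, so the rise of Adar rests on FPKM alone.

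**Figure D2:**
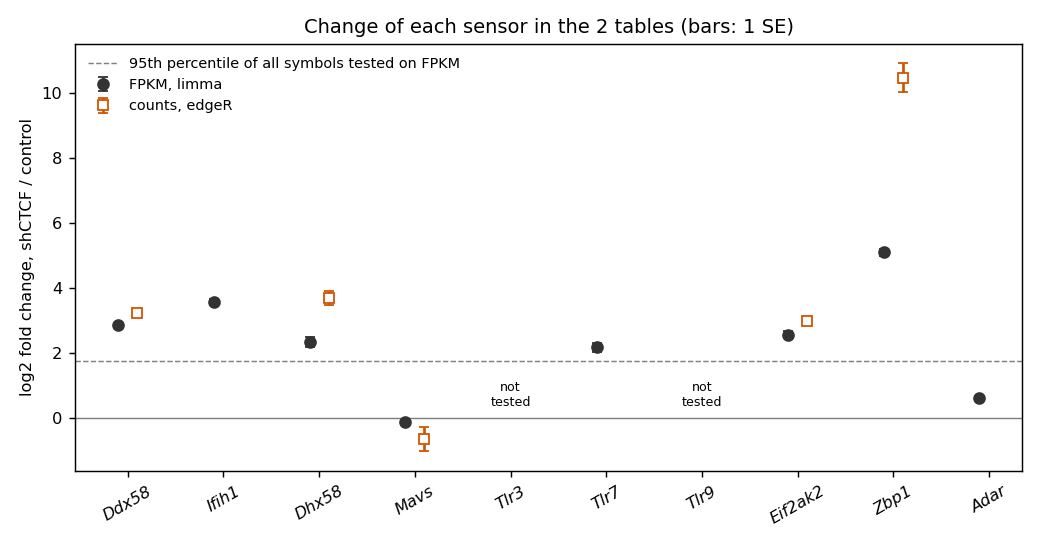
Log2 fold change (shCTCF over control) of each sensor, from FPKM + 1 (filled circles) and from counts (open squares), with bars of 1 SE; the dashed line is the 95th percentile of all symbols tested on FPKM (1.74). Ddx58, Dhx58, Eif2ak2 and Zbp1 rose in both tables, Mavs did not pass in either, and Tlr3 and Tlr9 were not tested.

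On counts, 5 of the 10 genes passed the filter, and 4 of them rose (Ddx58, Dhx58, Eif2ak2 and Zbp1), where 34.8% of the 7341 symbols tested on counts rose. Zbp1, with 0 counts in all controls, passed this filter only through the shCTCF group. The direction of the 4 genes was that seen on FPKM. For each of the 8 genes tested on FPKM, an exact two-sided permutation test over the 6 samples could not go below p = 0.1, the smallest value that 3 against 3 samples allow. This value was reached by the 7 genes that rose, whereas Mavs had p = 0.2 in the same exact test. Reaching it means no overlap between the groups, which 30.8% of all symbols tested on FPKM showed in the upward direction. Ifih1, Dhx58, Tlr7 and Zbp1 reached the FPKM filter only through the shCTCF group, so this count is no more than a description.

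The order of the genes by level changed between the groups. In controls, by mean FPKM, Mavs was highest (16.7 ± 1.497, SD, n = 3), followed by Adar (9.37 ± 0.577), Ddx58 (5.67 ± 0.322), Eif2ak2 (2.97 ± 0.511), Ifih1 (0.973 ± 0.132) and Dhx58 (0.495 ± 0.259), each without overlap with the next. Zbp1, Tlr7, Tlr9 and Tlr3 followed, each overlapping its neighbour where one follows. In shCTCF samples Ddx58 was highest (46.9 ± 2.35), then Zbp1 (34.2 ± 3.15). Ifih1 (22.3 ± 0.622) and Eif2ak2 (22.3 ± 0.457) did not differ beyond their spread, nor did Mavs (15.2 ± 0.761) and Adar (14.6 ± 0.665). Dhx58 (6.44 ± 0.784), Tlr7 (3.61 ± 0.622), Tlr9 (0.352 ± 0.205) and Tlr3 came last, each apart from the one before. The adaptor Mavs, the most abundant of the 10 genes in controls, thus stood below the 2 sensors that signal through it, Ddx58 and Ifih1, in shCTCF samples.

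The FPKM of a gene is a sum over its RefSeq transcripts, and the split between transcripts was less stable than the sum. The 10 genes have 24 transcripts, and 6 genes have more than 1. In Zbp1 the split in FPKM was steady between replicates: the short transcript NM_001139519 held 71.4%, 72.7% and 74.7% of the FPKM in shCTCF replicates 1 to 3, and the long transcript NM_021394 held the rest. Both rose (log2 change 4.64, SE 0.12, adjusted p = 5.9e-06, and 3.36, SE 0.18, adjusted p = 4.3e-05, limma over 13062 transcripts). In counts the proportions were the other way round, 63 for the short and 475 for the long transcript in the 3 shCTCF samples together, where only fragments over a transcript's own bases were counted, 174 bases in the short one and 1380 in the long one. Per kilobase of own bases there were 362 counts for the short and 344 for the long transcript, a nearly even division that differs from the one in FPKM. The share of each transcript is therefore uncertain, and the cause of the disagreement was not tested.

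For Adar the split moved from sample to sample. NM_019655 held 46.4%, 85.1% and 56.7% of its FPKM in controls and 28.9%, 61.7% and 72.2% in shCTCF samples, and NM_001038587 fell to 0% in shCTCF replicate 3. None of the 3 Adar transcripts that were tested passed the threshold, although their sum did. In Tlr7, NM_133211 held 0%, 73.8% and 63.8% in shCTCF replicates 1 to 3, and none of its transcripts reached the filter. Mavs was divided between NM_001206385 and NM_144888, and the former held from 28.0% to 64.9% in controls. In all, 11 of the 24 transcripts passed the filter and 6 rose, where 20.5% of the 13062 transcripts tested rose, and no tested transcript of the 10 genes fell. The transcripts of Ifih1, Dhx58 and Zbp1 among the 6 passed the filter only through the shCTCF group, so this count is no more than a description.

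**Figure D3:**
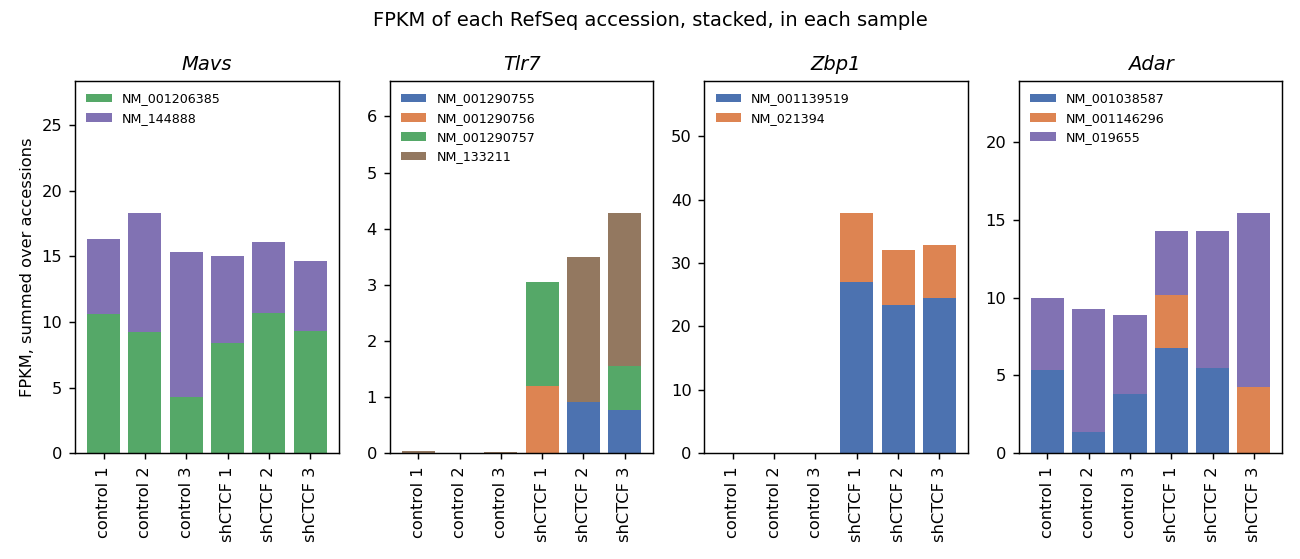
FPKM of each RefSeq transcript of Mavs, Tlr7, Zbp1 and Adar, stacked in each of the 6 samples (each panel has its own scale, from 0). The division is steady between replicates in Zbp1 and varies in Mavs, Tlr7 and Adar, while the height of the whole bar varies less.

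The genes that act with the RIG-I-like receptors moved in both directions. Of 27 genes listed for this pathway outside the 10 sensors, 25 were tested on FPKM, 13 rose, 8 fell and 4 did not pass, with a median log2 change of 0.33 against -0.17 over all tested symbols, of which 28.8% rose and 44.2% fell. With samples scaled to the same median, 14 rose and 6 fell. That scaling moved all symbols too: their median change went to -0.005, and the share of higher among called symbols from 39.5% to 49.3%. The largest rise was that of Irf7, an interferon regulatory factor, from 0.543 ± 0.160 to 49.2 ± 1.78 FPKM (log2 change 5.03, SE 0.10, adjusted p = 2.2e-08, limma). Trim25, a ubiquitin ligase that activates RIG-I, rose from 9.48 ± 0.567 to 32.97 ± 1.65 FPKM. The kinase Tbk1, which phosphorylates these regulatory factors, rose from 19.2 ± 1.73 to 40.8 ± 3.05 FPKM, and Tax1bp1, a selective autophagy receptor, from 338 ± 41.1 to 973 ± 32.1 FPKM. In contrast, Irf3, the regulatory factor present in resting cells, fell from 21.1 ± 3.35 to 10.4 ± 0.890 FPKM (log2 change -0.95, SE 0.12, adjusted p = 2.1e-04, limma). Lower as well were Rnf125 (-1.14), a ubiquitin ligase that marks RIG-I for degradation, Pcbp2 (-1.04), which promotes the degradation of MAVS, and the helicase Dhx15 (-0.95). Dhx15 did not pass on counts (-0.84, adjusted p = 0.182, edgeR). Irf7 and Pcbp2 had 0 counts in every sample and Irf3 had few. None of them was tested on counts, so their changes rest on FPKM alone. Trim25, Tbk1, Tax1bp1 and Rnf125 passed on counts in the same direction as on FPKM.

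The signalling genes of the Toll-like receptors moved both ways. Of 28 listed genes, 19 were tested, 9 rose, 7 fell and 3 did not pass (median log2 change 0.18), where 28.8% of all tested symbols rose and 44.2% fell. With samples scaled to the same median the balance moved to 10 that rose and 4 that fell of 20 tested (median log2 change 0.52, against -0.005 over all symbols), since Hsp90b1, Irak2 and Lgmn no longer passed as lower. Ctss, the lysosomal protease cathepsin S, rose from 2.10 ± 0.486 to 73.9 ± 4.28 FPKM (log2 change 4.60, SE 0.12, adjusted p = 7.3e-08, limma), and Ctsb, another cathepsin, by 1.19 on the log2 scale. The adaptor Myd88, which serves Tlr7 and Tlr9, rose from 11.4 ± 3.14 to 25.6 ± 0.362 FPKM, and Ticam1, the adaptor of Tlr3, from 12.2 ± 1.18 to 20.8 ± 0.936 FPKM. Unc93b1, which carries these receptors to endosomes, rose from 2.89 ± 0.400 to 6.79 ± 0.488 FPKM. The largest falls were those of the adaptor Ticam2 (-1.82), the kinase Irak1 (-1.14) and the receptor Tlr12 (-0.82). Ctss had 0 counts in every sample, and Unc93b1 and Irak1 had few. They were not tested on counts, so their changes rest on FPKM alone. Ctsb, Myd88, Ticam1, Ticam2 and Tlr12 passed on counts in the same direction as on FPKM.

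The list of cytosolic DNA sensing went mostly the other way. Of its 23 genes, 20 were tested, 4 rose and 14 fell, with a median log2 change of -0.65, where 28.8% of all tested symbols rose and 44.2% fell. The sensor cGAS (Cgas, listed under its older symbol Mb21d1) went from 5.96 ± 0.554 to 8.39 ± 0.521 FPKM (log2 change 0.43, SE 0.10, adjusted p = 0.00459, limma), and its adaptor STING (Sting1, older symbol Tmem173) from 8.67 ± 0.926 to 17.4 ± 0.632 FPKM (log2 change 0.93, SE 0.09, adjusted p = 5.2e-05, limma). On FPKM both of these core genes therefore rose, as did Ifi204 (2.55), a DNA-binding protein, and Trim56 (1.30), a ubiquitin ligase. Cgas and Sting1 had 0 counts in every sample, so their rises rest on FPKM alone, whereas Ifi204 and Trim56 rose on counts as well. The falls were led by the chromatin proteins Hmgb2 (-2.36) and Hmgb1 (-1.87) and the DNA repair subunit Xrcc6 (-1.64), which act in every nucleus and not in sensing alone. Hmgb2 had few counts and was not tested on counts, while Hmgb1 and Xrcc6 fell there too.

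Genes that remove or edit nucleic acids showed no common direction. Of 18 listed genes, 17 were tested, 6 rose, 6 fell and 5 did not pass (median log2 change 0.11), where 28.8% of all tested symbols rose and 44.2% fell. With samples scaled to the same median, 6 rose and 4 fell (median log2 change 0.29, against -0.005 over all symbols). The exonuclease Trex1, which degrades cytosolic DNA, rose from 7.25 ± 0.471 to 25.3 ± 1.57 FPKM, and the nucleotide hydrolase Samhd1 from 14.8 ± 0.944 to 30.0 ± 1.43 FPKM. Pld3 (2.16), a lysosomal exonuclease, and Zc3h12a (1.85), a ribonuclease, rose too, whereas the ribonuclease H2 subunits Rnaseh2b (-1.09) and Rnaseh2c (-0.61) and the lysosomal nuclease Dnase2a (-0.86) fell. Rnaseh2c did not pass on counts (-0.43, adjusted p = 0.0655, edgeR). Trex1 had 0 counts in every sample, and Samhd1 and Pld3 had few. They were not tested on counts, so their rises rest on FPKM alone. Zc3h12a, Rnaseh2b and Dnase2a passed on counts in the same direction as on FPKM.

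Around Zbp1, its necroptosis partners had smaller log2 changes than Zbp1 itself. Of 8 listed genes, 7 were tested, 4 rose and 2 fell (median log2 change 0.66), where 28.8% of all tested symbols rose and 44.2% fell. On counts 5 were tested, 2 rose and 3 did not pass (median log2 change -0.05), where 34.8% of the symbols tested on counts rose. Mlkl, the executor that permeabilises the membrane, rose from 17.2 ± 1.98 to 41.2 ± 1.56 FPKM (log2 change 1.22), and the protease Casp8 (1.10) and the kinase Ripk1 (1.09) rose by similar amounts. Mlkl had at most 2 counts in any sample and was not tested on counts, so its rise rests on FPKM alone. The kinase Ripk3, which binds ZBP1, fell from 57.0 ± 3.94 to 39.4 ± 2.64 FPKM (log2 change -0.52, SE 0.08, adjusted p = 5.9e-04, limma), and on counts it did not pass (-0.05, adjusted p = 0.962, edgeR). The adaptor Fadd (-0.35) fell as well, but did not pass after scaling to the same median (adjusted p = 0.149).

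In the branch of PKR and the other eIF2 alpha kinases, 13 of 13 listed genes were tested, 4 rose, 5 fell and 4 did not pass (median log2 change -0.19), where 28.8% of all tested symbols rose and 44.2% fell. With samples scaled to the same median the balance turned to 5 that rose, Ppp1r15b among them (0.38, adjusted p = 0.00368, limma), and 3 that fell. The median log2 change of the list was then -0.01, against -0.005 over all symbols, which moved with the scaling as well. The phosphatase subunit Ppp1r15a rose by 1.29 and the stress factor Ddit3 by 1.01, while Atf4 (-0.84), the factor translated when eIF2 alpha is phosphorylated, Nfkb1 (-1.07) and the kinase Eif2ak4 (-0.69) fell. Ddit3 did not pass on counts (0.20, adjusted p = 0.532, edgeR). Atf4 and Eif2ak4 had few counts and were not tested on counts, so their falls rest on FPKM alone. Ppp1r15a and Nfkb1 passed on counts in the same direction as on FPKM. The substrate of PKR, Eif2s1, went from 69.4 ± 11.4 to 51.3 ± 1.33 FPKM (log2 change -0.41, SE 0.12, adjusted p = 0.0138, limma), and the PKR activator Prkra from 15.6 ± 2.79 to 11.1 ± 1.45 FPKM (-0.45). Neither Eif2s1 (adjusted p = 0.0975) nor Prkra (adjusted p = 0.116) passed after scaling to the same median.

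Interferon transcripts were not seen. All 18 type I, II and III interferon genes of the list, Ifnb1 among them, were listed at 0 FPKM in all 6 samples, and all 18 had 0 counts in all samples. A count of 0 allows up to 3 counts per library (0.426 to 1.78 CPM when scaled to the plain library totals), so that expression below this level was not detectable at this depth. Several Ifna genes are near-identical copies, and reads shared between them are uncertain.

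**Figure D4:**
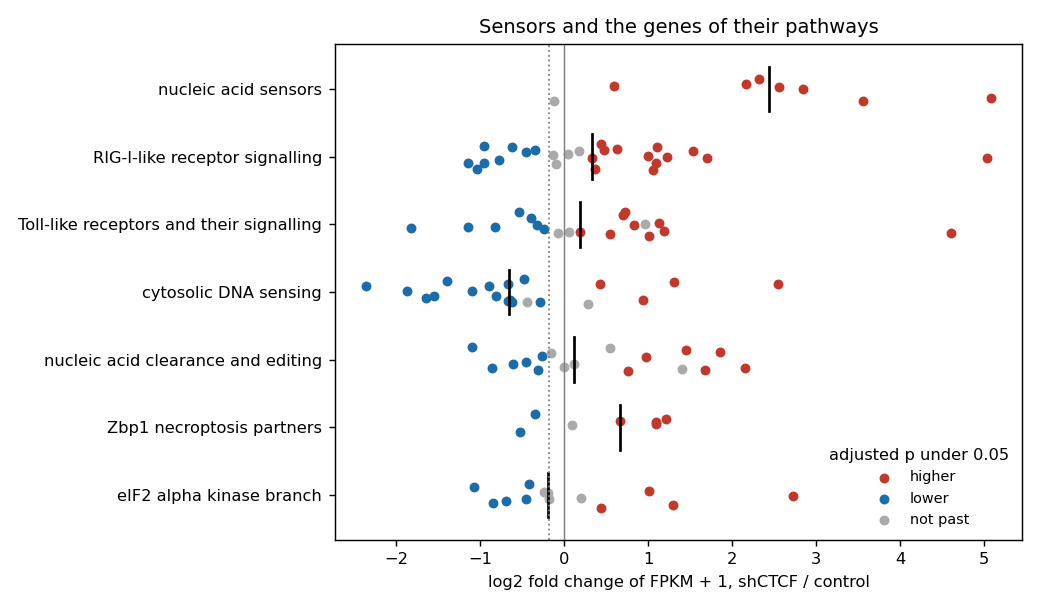
Log2 fold change of FPKM + 1 for each tested gene of the sensors and of 6 pathway lists; red points rose, blue points fell and grey points did not pass an adjusted p of 0.05, black bars are medians and the dotted line is the median of all tested symbols (-0.17). The 8 tested sensors have a median of 2.44, which includes 4 genes that passed the filter only through the shCTCF group, and the genes of cytosolic DNA sensing have a median of -0.65.

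Markers of other cell types were set beside these values. For plasmacytoid dendritic cells, which are known for high Tlr7 and Tlr9, Siglech was at 0 in all samples and 2 of 8 markers were above a mean of 1 FPKM in each group. Their summed level was 29.8 to 33.4 FPKM in controls and 356 to 379 FPKM in shCTCF samples, nearly all from Bst2 (30.4 ± 2.22 and 360 ± 12.2 FPKM), which interferons also induce in other cells. None of 6 B cell markers reached a mean of 1 FPKM, and Ms4a1 was at 0. Of 9 macrophage markers, 3 were above 1 FPKM in controls and 4 in shCTCF samples, with sums of 103 to 113 and 204 to 239 FPKM. Csf1r (0.140 ± 0.0495 and 0.0689 ± 0.0167 FPKM), Itgam and Mertk were near 0 in both groups, whereas Cd68 (44.7 ± 4.66 and 137 ± 7.64 FPKM), Adgre1 (56.7 ± 0.661 and 73.7 ± 10.4 FPKM) and Lyz2 (0.0274 ± 0.0475 and 3.29 ± 0.731 FPKM) rose. Of 18 fibroblast markers, 6 were above 1 FPKM in each group and Col3a1 and Lum were at 0. Their sum was 1110 to 1153 FPKM in controls and 6505 to 6690 FPKM in shCTCF samples, of which Vim made up most (1018 ± 27.4 and 6457 ± 93.2 FPKM). Single fibroblast markers moved both ways: of 8 that were tested, 5 rose and 3 fell. The falls were those of Fn1 (2.22 ± 0.111 to 0.0266 ± 0.00288 FPKM), Dcn (2.71 ± 0.107 to 0 FPKM) and Pdgfrb (6.09 ± 0.799 to 2.16 ± 0.146 FPKM). The summed mast cell markers were 1572 to 1631 FPKM and 1576 to 1663 FPKM, but single markers moved in opposite directions: 4 rose, such as Hdc from 4.25 ± 0.219 to 87.2 ± 7.58 FPKM, and 2 fell, Cpa3 from 281 ± 56.7 to 88.0 ± 13.1 FPKM and Ctsg from 151 ± 19.4 to 2.22 ± 0.278 FPKM. The defining marker Fcer1a was at 0. For T and NK cells, 1 of 6 markers was above 1 FPKM in each group, with sums of 0.451 to 1.78 and 1.38 to 1.53 FPKM, and Ncr1 was at 0. The part of other cells in the rise of the sensors was not tested.

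For each sensor with a mean of at least 1 FPKM, the gene with the most similar profile was sought among the other 9975 tested symbols, by Euclidean distance of log2(FPKM + 1) over the 6 samples. The nearest to Zbp1 was Fam118b, listed at 0 FPKM in all controls and at 32.1, 32.5 and 32.6 FPKM in shCTCF samples (distance 0.278). Beside Ddx58 stood Adora3 (0.318), beside Ifih1 Spsb1 (0.302), beside Dhx58 Trim63 (0.407), beside Eif2ak2 Fgfbp3 (0.259) and beside Tlr7 Tlcd2 (0.198). Mavs was closest to Rnf8 (0.157) and Adar to Zranb1 (0.152). None of these genes is among the other sensors.

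Since CTCF bounds chromatin domains, the nearest tested gene on either side of each sensor was read from the mm9 coordinates, a comparison chosen after the values of the sensors had been seen. Of the 20 neighbours 6 rose, 6 fell and 8 did not pass, with a median log2 change of -0.10, and 7 changed by at least 2-fold, 3 of them upward. The share of neighbours that rose was close to the 28.8% of all tested symbols. Several of these genes lie far away, at 795 and 3436 kb from Ifih1, 565 and 3978 kb from Tlr3 and 172 and 441 kb from Zbp1. Beside Ddx58, Aco1 (-0.17, adjusted p = 0.176) at 4.77 kb and Topors (0.00, adjusted p = 0.987) at 19.8 kb did not pass. Kat2a, 0.475 kb from Dhx58, fell by 1.87 on the log2 scale, opposite to Dhx58. Next to Eif2ak2, Gm6548 (1.78, adjusted p = 1.9e-06, limma) rose with it. However, Gm6548 lies 6 bases past the end of Eif2ak2, and whether its reads stem from Eif2ak2 transcripts was not tested. At 6.58 kb from Tlr9, Alas1, the first enzyme of haem synthesis, rose from 8.70 ± 1.85 to 55.4 ± 5.12 FPKM. Both neighbours of Tlr7, Tmsb4x (1.22) and Prps2 (0.65), and both of Zbp1, Rbm38 (0.57) and Rab22a (0.91), rose by less than the sensor between them.

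**Figure D5:**
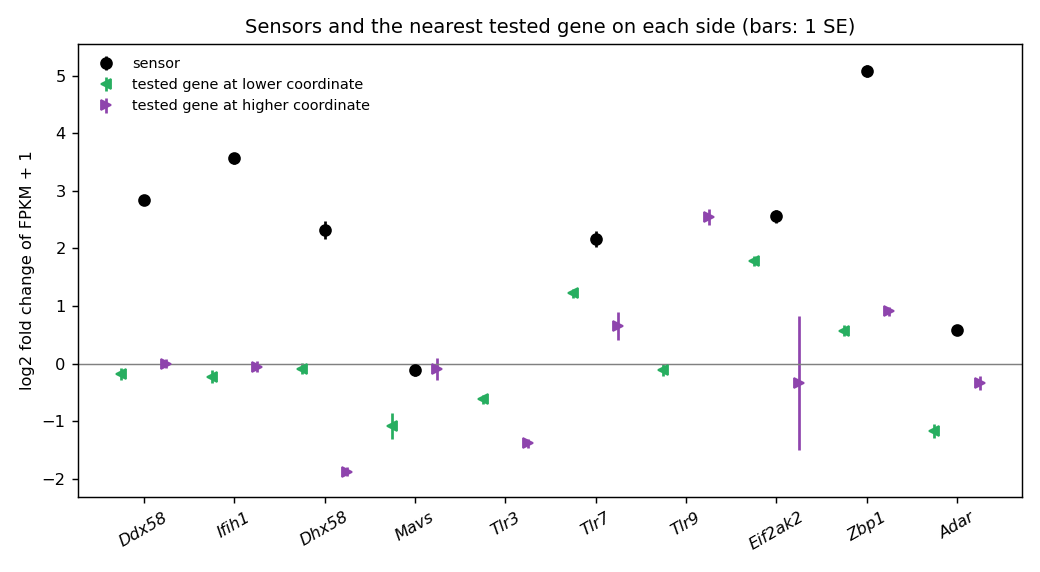
Log2 fold change of FPKM + 1 for each sensor (black circles, absent for the untested Tlr3 and Tlr9) and for the nearest tested gene on its lower-coordinate side (green) and higher-coordinate side (purple), with bars of 1 SE. The neighbours range from -1.87 (Kat2a) to 2.55 (Alas1), and no neighbour rose by as much as the largest rise among the sensors, 5.08 in Zbp1.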

How the data were processed

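RNA of 3 control and 3 shCTCF samples of mouse FGSCs had been sequenced from stranded mRNA libraries, and the authors aligned reads to mm9 with HISAT2. The deposited counts are whole fragments per RefSeq accession made by the authors with featureCounts 1.6.2 (file header), without strand; a fragment over exons of more than 1 accession was assigned to none. The FPKM values were calculated by the authors with Cufflinks 2.2.1, per the labels, and are scaled to transcript length and depth. A repeated header row was dropped. No value column lacked a sample (0 columns). Accessions were named with a RefSeq table (GRCm38.p6, names only) and summed per symbol. Accessions without a symbol, with 0.603% of the counts in the sample where they had most, were left out of library sizes and tests. In the lists, 3 older symbols were replaced by current ones.

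For FPKM, log2(FPKM + 1) values were fitted by limma 3.58.1 (eBayes with an intensity trend), for symbols with a mean of at least 1 FPKM, and fold changes on that scale understate those of low genes. Counts were tested with edgeR 4.0.16 (TMM, filterByExpr, quasi-likelihood test, R 4.3.3). Tests were two-sided, p-values were adjusted by Benjamini-Hochberg over all symbols tested, and the threshold was 0.05. Both fits were tested on simulated data. Ratios of counts have exact 95% intervals; floors of 3 counts and intervals cover counting error only. Depth is known from the counts (1686052 to 7044272 per sample).

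The genes named are the 10 sensors, Ctcf, 16 fixed partners, up to 3 largest rises and falls of each list past the threshold, the nearest profiles and the genomic neighbours. The sensors, lists and tests were chosen with earlier results of these data known. The labels give both groups the same replicate numbers; deviations of same-numbered samples correlated by -0.041, 0.018 and 0.0395 over 9976 symbols, so the numbers were not taken to pair samples. Replicates differed by more than sampling noise (chi-square per degree of freedom 2.07 to 8.17 within groups). Alternatives were other pseudocounts, filters and scalings, DESeq2 1.42.0, limma without trend, the row with the highest mean, a replicate block and omission of each replicate; those for the pathway lists were added after seeing the data. Results of 2 genes that the rule or the marker lists name are not reported here.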

Additional observations from a re-analysis of the deposited data

How the results depend on the processing

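Ctcf kept its direction and call, and the numbers of genes, of sensors and of genes in each pathway list past the threshold, in either direction, stayed within 1.5 times their value, in 162 of 162 alternatives together. Those of the interferon list, counted among the 162, could not have changed, since all its genes were at 0 FPKM in every sample. The balance of rises and falls was less stable: the eIF2 alpha kinase branch turned from 4 and 5 to 5 and 3 with samples scaled to the same median. Of 164 alternatives for single sensors, 161 kept direction and side of the threshold. Mavs turned from -0.12 to 0.0557 (adjusted p = 0.599) with samples scaled to the same median and to 0.2845 (adjusted p = 0.431) when only the transcript with the highest mean was used, never past the threshold. Adar dropped to 0.34 (adjusted p = 0.425) with the row of the highest mean, which takes 1 of its 4 transcripts. Scaling to the same median moved the median of all symbols on FPKM from -0.17 to -0.01 and the share of higher among called symbols from 39.5% to 49.3%; in counts, scaling by library size only moved that share from 50.3% to 41.5%. Under a filter at a mean of 5 FPKM, Dhx58 and Tlr7 could not be tested. Nor could Tlr7 with the row of the highest mean, where 5 sensors passed. Such cases are not among the 164. With other pseudocounts, Zbp1 reached 10.54 and Tlr7 7.06 on the log2 scale.

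When each replicate was left out in turn, 6577 to 7919 symbols passed on FPKM and 4610 to 5662 on counts, 7 sensors passed on FPKM each time and 4 to 6 on counts (the added ones are Ifih1 and Tlr9, which then passed the filter on low counts, as both did with no filter), and Ctcf changed by -5.16 to -5.08. A replicate block in the fit called 7137 symbols and 7 sensors on FPKM and 4889 symbols and 4 sensors on counts and changed no call of a sensor; the samples share only a number. The low depth of control replicate 2 and the loss of fragments over shared exons limit Ifih1, Mavs, Tlr3, Tlr7 and Adar in counts.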
